A study of Mus musculus with 6 samples.

Results

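The DNA replication and S phase genes are 34 genes out of 55487 in the count table. They were chosen by name for their roles in copying the genome, with earlier results of these data known. All 34 were matched by gene symbol, and all 34 passed the filter on low counts that left 11224 genes for testing. RNA sequencing gave their levels in cells labelled muscle stem cells, the precursors that rebuild muscle fibres after injury. The mice were 10 weeks old, and cells were taken 60 h after cardiotoxin (CTX), a snake venom toxin that destroys muscle fibres. The 3 control libraries came from mice of genotype WT given oil, and the 3 KO libraries from Setdb1 KO mice given tamoxifen. Setdb1 encodes a histone H3 lysine 9 methyltransferase of silent chromatin. Genotype and tamoxifen changed together and cannot be told apart, and the labels name neither the Cre line nor the deleted exon. The question was how these transcripts differed between KO and control cells.

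DNA is copied once per cell cycle. In G1, the loaders CDC6 and CDT1 place the ring-shaped MCM2-7 helicase on origins. In S phase, kinases and the proteins MCM10, CDC45 and GINS turn it into the active helicase, polymerase alpha-primase lays down primers, the RFC complex loads the PCNA clamp, and FEN1 and LIG1 join the Okazaki fragments. E2F transcription factors, held back by the RB family until cyclin-dependent kinases (CDKs) act, switch on most of these genes as cells leave G1. Muscle stem cells are quiescent in resting muscle, and enter the cycle after injury.

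Total counts per library were between 4052569 and 5690844, and the 34 genes together held between 7196 and 14214 counts per library. Setdb1 was at 34.9, 40.5 and 32.1 CPM (counts scaled to a common library size with TMM factors) in the controls, and its KO values were 16.5, 12.7 and 14.7 CPM. The groups did not overlap, with an edgeR adjusted p of 0.000209 and a log2 fold change of -1.30. A pair of libraries stood apart. KO library 1 had counts in 30363 genes, against 18737 to 19951 in the others, and the largest ribosomal RNA share, 38.4% against 28.6% to 32.2%. Control library 3 held most neutrophil RNA, with a summed level of 2096 CPM over 8 markers, against 3.8 and 2.1 CPM in control libraries 1 and 2 and 2.4, 740 and 279 CPM in KO libraries 1, 2 and 3. The 8 muscle stem cell markers were all present and summed to 991 to 1060 CPM in controls and 1180 to 1574 CPM in KO libraries. Of these 8, Myod1, a myogenic transcription factor, passed the test and rose from 142 ± 5.50 to 292 ± 63.4 CPM (SD, n = 3, adjusted p = 0.000779). Des was at 371 ± 22.1 and 510 ± 98.5 CPM (adjusted p = 0.108), and Pax7, Myf5 and Itga7 had log2 fold changes of -0.01, -0.01 and 0.04. Those of Chodl, Cdh15 and Vcam1 were 0.59, 0.38 and 0.13 (edgeR adjusted p = 0.1455, 0.2586 and 0.5714). The 6 fibro-adipogenic markers summed to 569 to 1327 CPM in controls and 1179 to 1746 CPM in KO libraries. The 5 mural markers summed to 52.6 to 81.8 CPM in controls and 92.6 to 113 CPM in KO libraries. Tagln (log2 fold change 1.51, adjusted p = 0.000832) and Acta2 (0.72, 0.0333) passed the test. The rest of that list showed no such rise. Mean levels in controls and KO were 8.24 and 8.33 CPM for Rgs5 and 7.80 and 9.49 CPM for Pdgfrb (adjusted p = 0.745). Myh11, too low to be tested, was at 1.90 and 1.81 CPM. The 7 macrophage markers summed to 8.8 to 89.8 CPM in controls and 9.0 to 36.8 CPM in KO libraries. Lyz2 made up most of the highest sums, with 76.1 CPM in control library 3 and 29.4 CPM in KO library 2. Adgre1, Csf1r, C1qa and C1qb were too low to be tested. Endothelial, lymphocyte and erythroid markers stayed at or below 10.6 CPM per list, with Hba-a2 at 0 counts in every library. The part of these differences in the levels below was not tested.

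Promoters are shown for the 3 members that passed the test, Tk1, Mcm10 and Mcm7, since E2F factors are known to act on this set of genes. RefSeq promoter windows (GRCm38.p6) were found for 28 of the 34 members, 32 windows in all, with no entry for Mcm4, Gins1, Gins2, Prim2, Rfc2 and Ccne2. Each ran from 250 bases before to 50 bases after a transcript start. Each was searched on both strands for the E2F core (the word TTGGCGC or TTCCCGC or TTCGCGC or TTGCCGC) and for CCAAT, the letters bound by NF-Y. An E2F core may overlap a CCAAT in the letters they share. The printed stretch covers 220 bases before to 30 bases after the RefSeq start, 5′ to 3′ on the gene's strand, which is minus for all of them, and capitals mark the matches. A match on the other strand appears as its reverse complement. Mcm6 is added because its window held the most E2F core matches, 5, and it was chosen after its matches were seen.
Tk1, chr11:117825985-117826234: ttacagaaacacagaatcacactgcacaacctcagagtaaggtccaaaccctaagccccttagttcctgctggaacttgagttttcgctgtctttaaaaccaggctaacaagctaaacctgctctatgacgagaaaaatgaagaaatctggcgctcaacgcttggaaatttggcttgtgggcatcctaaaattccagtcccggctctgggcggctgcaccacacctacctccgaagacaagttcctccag
Mcm10, chr2:5012762-5013011: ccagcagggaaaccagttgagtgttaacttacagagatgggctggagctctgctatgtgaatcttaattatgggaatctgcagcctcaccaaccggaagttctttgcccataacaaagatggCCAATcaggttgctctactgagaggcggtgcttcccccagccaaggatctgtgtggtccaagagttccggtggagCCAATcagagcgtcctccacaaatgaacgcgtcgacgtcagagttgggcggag
Mcm7, first start, chr5:138171854-138172103: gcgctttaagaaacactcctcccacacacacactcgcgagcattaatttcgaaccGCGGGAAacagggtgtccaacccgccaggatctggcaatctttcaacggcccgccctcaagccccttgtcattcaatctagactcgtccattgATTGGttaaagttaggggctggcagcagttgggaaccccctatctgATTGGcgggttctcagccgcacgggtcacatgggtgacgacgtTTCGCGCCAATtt
Mcm7, second start, chr5:138171237-138171486: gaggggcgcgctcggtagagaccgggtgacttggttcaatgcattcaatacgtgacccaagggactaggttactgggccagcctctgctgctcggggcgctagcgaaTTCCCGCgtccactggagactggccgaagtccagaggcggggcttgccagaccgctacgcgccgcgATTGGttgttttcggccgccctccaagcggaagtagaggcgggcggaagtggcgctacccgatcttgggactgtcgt
Mcm6, chr1:128359676-128359925: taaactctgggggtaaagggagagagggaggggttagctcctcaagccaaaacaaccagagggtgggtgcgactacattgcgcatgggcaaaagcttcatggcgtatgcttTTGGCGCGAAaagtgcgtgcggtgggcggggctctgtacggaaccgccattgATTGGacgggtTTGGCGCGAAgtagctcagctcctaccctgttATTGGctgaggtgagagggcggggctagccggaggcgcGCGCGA

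Mcm7 and Mcm10 shared CCAAT, and of the 3 members that passed Mcm7 alone held an E2F core. The first Mcm7 window held E2F cores at positions -165, 18 and 21 from the start, the last 2 on opposite strands and overlapping each other, and CCAAT at -72, -26 and 24, the last overlapping those cores. The second held an E2F core at -113 and a CCAAT at -47. The Mcm10 window held no E2F core and 3 CCAAT, of which those at positions -98 and -23 are in the printed stretch. The Tk1 window held neither. RefSeq and GENCODE M21 place the Tk1 start differently: the nearest GENCODE starts lie at -78 and, beyond this window, at 4 places from 147 to 197 bases downstream of the RefSeq start. The 5 matches of Mcm6 lie in 2 pairs, each of 2 overlapping words on opposite strands, and a single word at position 25 that runs past the printed end.

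Across the members, 19 of 32 windows (59.4%) held an E2F core. The share was 47.3% of 74 windows of other replication genes, 17.5% of 10603 windows of tested genes and 9.57% of all 32851 windows. CCAAT was in 18 of the 32 windows (56.2%), against 47.3% for other replication genes, 37.7% for tested genes and 37.4% of all windows. Both stood in 13 of 32 windows (40.6%), against 21.6% for other replication genes and 6.88% for tested genes. The differences between these shares were not tested. These are letter matches in a fixed window, and no binding was measured.

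All 34 genes had a lower fitted level in KO cells, and 3 of them, Tk1, Mcm10 and Mcm7, passed the edgeR test with an adjusted p under 0.05. On the same 11224 genes limma-voom called the same 3, and DESeq2 called Mcm7 (adjusted p = 0.0269) but not Mcm10 (0.0605) or Tk1 (0.0816). DESeq2 on all 34908 genes with a count, which changes the filter as well, also called Mcm7 alone (0.0194, against 0.185 for Mcm10 and 0.231 for Tk1). Of those 34908 genes, 14566 were given an adjusted p. With edgeR, DESeq2 and limma-voom alike 0 members were called higher, also at an unadjusted edgeR p under 0.05. Their median log2 fold change was -0.35, with a range from -0.64 to -0.05, and the median over all tested genes was 0.01. On the linear scale the mean KO level was lower by a median of 21.6%, from 2.38% for Rfc2 to 35.5% for Tk1. Among all tested genes, 0.615% were called lower and 2.22% higher, and 49.1% had a negative log2 fold change. The 34 genes were chosen with earlier results of these data known, so setting them against all genes is description, not a test. In bulk cells, a smaller share of cells in S phase and less RNA per cell cannot be told apart.

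**Figure D1:**
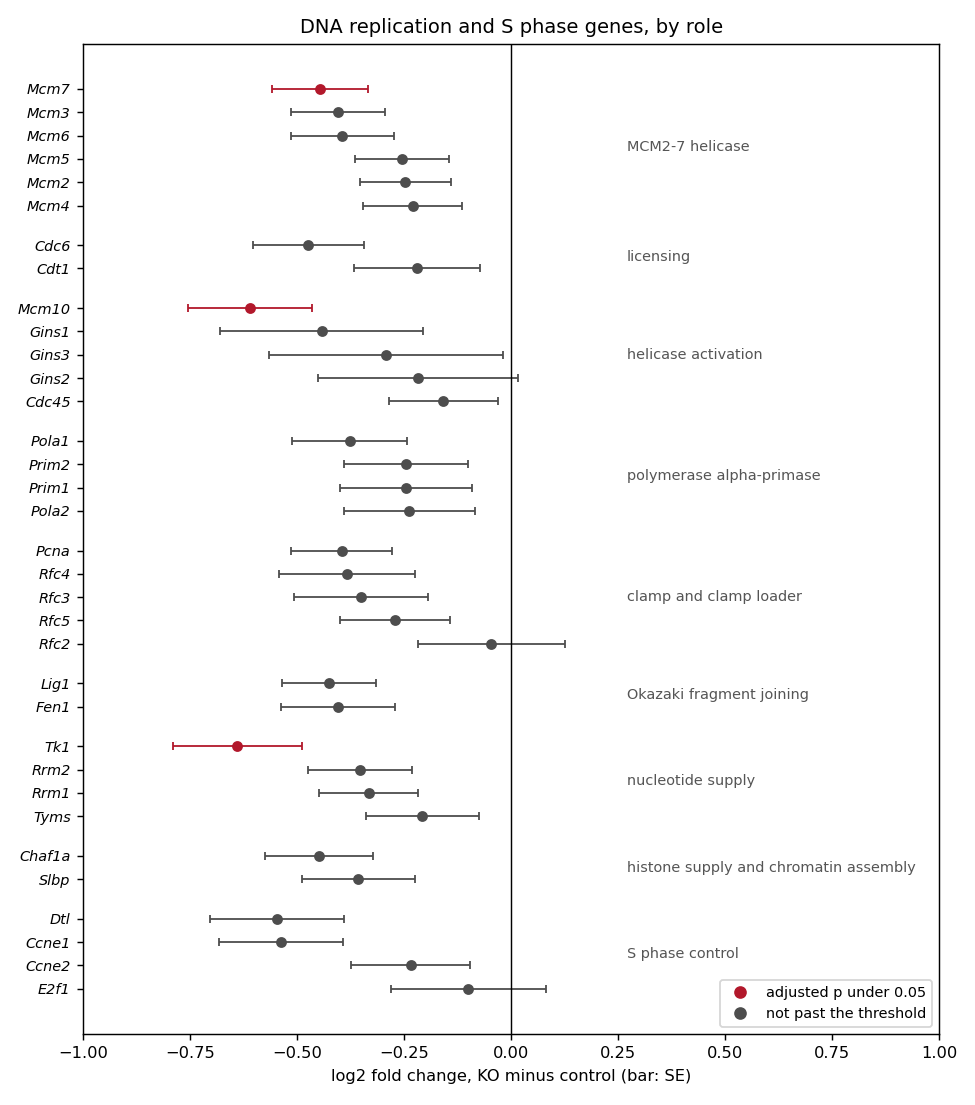
Log2 fold changes (x axis, KO minus control) of the 34 genes, ordered by role, with bars of 1 SE. All 34 points lie left of 0, between -0.64 for Tk1 and -0.05 for Rfc2, and the 3 red points are those past the threshold.

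Every KO library was below every control library for 26 of the 34 genes, against 11.5% of all tested genes. At an unadjusted p under 0.05, 20 members were lower, against 7.64% of all tested genes. Because earlier results of these data were known when the list was made, these shares describe the list and test nothing. The 8 members whose groups overlapped were Cdt1, Gins2, Gins3, Pola2, Prim1, Rfc2, Ccne2 and E2f1. The summed level of the 34 genes was 2629, 2717 and 2626 CPM in the controls and 1914, 2155 and 2158 CPM in the KO libraries. The sum was thus 21.9% lower in KO cells, with SDs of 51.6 and 140 CPM (n = 3 each).

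All 3 KO libraries were below the controls, and KO library 1, which has the fewest counts and the largest ribosomal RNA share, was the lowest. Over the members, the median log2 ratio to the control mean was -0.45, -0.27 and -0.33 in KO libraries 1, 2 and 3. It was -0.04, 0.01 and -0.01 in the control libraries. In each KO library 33 of the 34 genes were below the control mean. The exceptions were Rfc2 (KO 1), Gins2 (KO 2) and E2f1 (KO 3, level with the control mean). KO library 1 held the lowest of the 6 values for 24 genes, and KO libraries 2 and 3 for 5 each. No control library held the lowest value of any member. Without KO library 1 the median fold change of the members was -0.28 on the log2 scale, and without KO library 1 and control library 3 together it was -0.29, with all 34 negative in both. With both left out, the log2 fold change was nearer 0 by over 1.5 times for Cdc45 (-0.10), Pola2 (-0.15), Prim1 (-0.15), Rfc3 (-0.21), Rfc4 (-0.23), Slbp (-0.19) and E2f1 (-0.02). That of Rfc2 was further from 0 by over 1.5 times (-0.15, against -0.05 with all libraries). Smaller moves away from 0 included those of Cdt1 (-0.31), Fen1 (-0.48) and Ccne1 (-0.65).

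**Figure D2:**
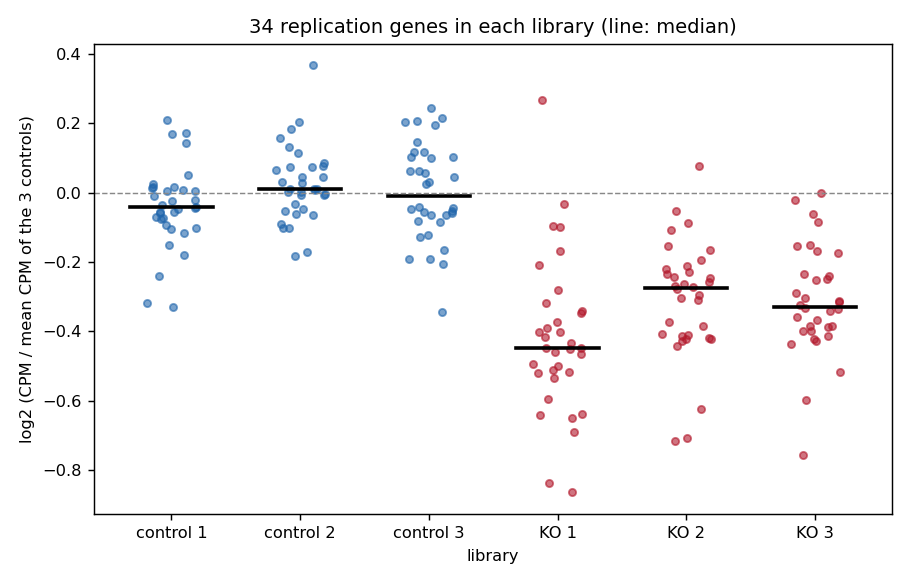
Each point is 1 of the 34 genes in 1 library, as the log2 ratio of its CPM to the mean of the 3 controls (y axis), and black lines are medians. The KO medians lie at -0.45, -0.27 and -0.33, and a single point stands above 0 in KO libraries 1 and 2.

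The 6 subunits of the MCM2-7 helicase, the motor that unwinds DNA, all had non-overlapping groups. Mcm7 (ENSMUSG00000029730, chr5:138164583-138172422, minus strand, GRCm38) was at 179, 171 and 186 CPM in the controls, and its KO values were 124, 134 and 136 CPM. The lowest control lay well above the highest KO library. The mean level of Mcm7 fell to 131 ± 6.61 CPM from 179 ± 7.42 in controls (SD, n = 3). The edgeR adjusted p was 0.0445, at a log2 fold change of -0.45 with an SE of 0.11. Leaving out each of the 6 libraries in turn ended the call every time, with an adjusted p from 0.0677 to 0.147. In edgeR fits of all libraries, the call also ended with a filter of at least 1 CPM in 3 libraries (adjusted p = 0.0509). It ended with no low-count filter (0.069) and with library totals alone (0.0737) too. Mcm7 shared 23.3% of its 50-base words with other genes, among them the gene Gm5487, which held 4 to 9 counts per library against 465 to 1008 for Mcm7. Mcm7 also hosts the microRNA genes Mir106b, Mir93 and Mir25, each listed at 0 counts in all 6 libraries. Exons of Ap4m1 and Cops6 on the other strand cover 8.7% of Mcm7 exon bases, and their part in the Mcm7 counts was not tested. Mcm3 was at 149, 153 and 143 CPM in the controls and 108, 111 and 118 CPM in the KO libraries, with an adjusted p of 0.0662. Mcm6 followed with a log2 fold change of -0.39, and Mcm5, Mcm2 and Mcm4 with -0.26, -0.25 and -0.23, none past the threshold.

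Levels per length differed between subunits of 1 complex. Per kilobase of the principal transcript, Mcm6 (65.2 ± 2.97 CPM per kb) and Mcm7 (60.4 ± 2.50) were the highest of the helicase genes in controls. Next came Mcm3 at 49.0 ± 1.64 and Mcm4 at 43.0 ± 1.25 CPM per kb. Mcm2 (27.9 ± 0.57) and Mcm5 (27.1 ± 1.33) were the lowest and did not differ beyond their spread. The highest and lowest of the 6 were 2.4-fold apart in controls and 2.18-fold apart in KO cells, in the same order. The order rests on the length used: per kilobase of all annotated exons, Mcm4 was the highest and Mcm2 the lowest.

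**Figure D3:**
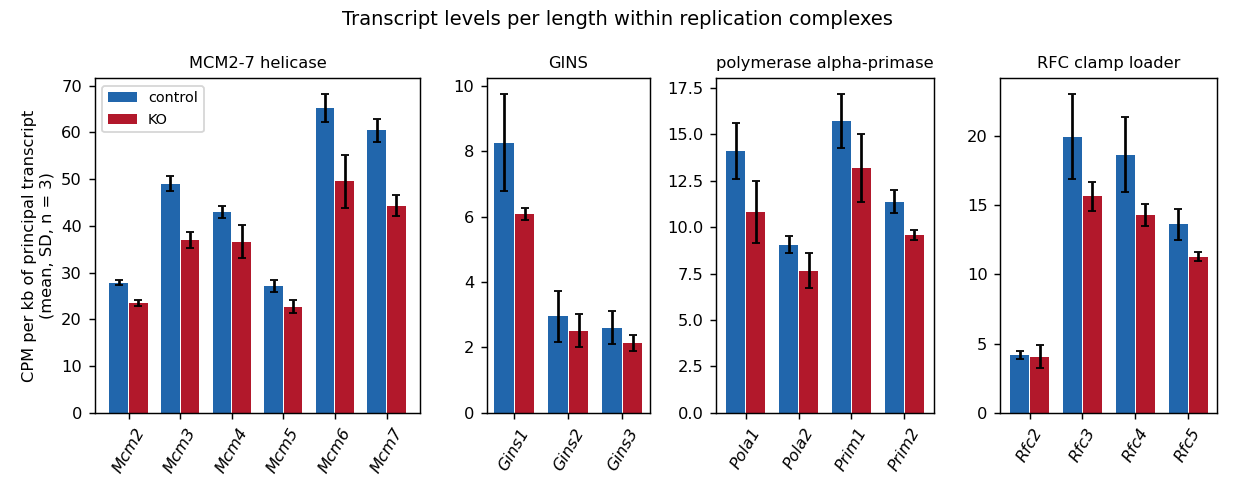
Mean CPM per kilobase of principal transcript (y axis, bars with SD, n = 3) in control and KO libraries for the listed subunits of the helicase, GINS, polymerase alpha-primase and RFC. Mcm6 is highest at 65.2 and 49.5 CPM per kb, and the KO bar is the lower of each pair.

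The licensing genes Cdc6 and Cdt1, whose products load the helicase, differed in how well the groups separated. Cdc6 was at 50.3, 48.9 and 46.4 CPM in the controls, and its KO values were 30.1, 37.2 and 37.1 CPM, with no overlap (adjusted p = 0.0671, log2 fold change -0.47, SE 0.13). Cdt1 was at 42.5, 32.4 and 35.3 CPM against 34.3, 27.3 and 33.0 CPM. Its KO libraries 1 and 3 lay above control library 2, and the adjusted p was 0.461. Its log2 fold change of -0.22 was -0.11 without control library 1 and -0.13 without KO library 2.

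Of the 5 genes that turn the loaded helicase on, Mcm10 passed. Mcm10 (ENSMUSG00000026669, chr2:4989714-5012791, minus strand) encodes a scaffold needed to start unwinding, and shared no 50-base word with another gene. It was at 41.1, 49.1 and 39.5 CPM in the controls, and its KO values were 24.2, 31.8 and 28.5 CPM. The groups did not overlap, with control library 2 the highest and KO library 1 the lowest. The mean level of Mcm10 fell to 28.2 ± 3.82 CPM from 43.2 ± 5.12 in controls (SD, n = 3). The edgeR adjusted p was 0.0358, at a log2 fold change of -0.61 with an SE of 0.15. It passed with control library 3 left out (adjusted p = 0.0259). Leaving out any other single library, control 1, control 2, KO 1, KO 2 or KO 3, ended the call (0.0562 to 0.189). Cdc45, a subunit of the active helicase, had a log2 fold change of -0.16 and an adjusted p of 0.554. The GINS genes were the least counted members, with 23 to 71 counts per library. Gins1 was at 7.21, 9.39 and 10.3 CPM against 6.38, 6.78 and 6.65 CPM (adjusted p = 0.35), with no overlap. Gins2 and Gins3 overlapped between groups, with SEs of 0.23 and 0.27 on the log2 scale. With 1 library left out, the log2 fold change ran from -0.40 (without KO 2) to -0.01 (without control 2) for Gins2, and from -0.44 (without control 1) to -0.15 (without control 3) for Gins3.

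None of the 4 genes of polymerase alpha-primase, which starts each new strand, passed. Pola1, the catalytic subunit, was at 83.3, 75.8 and 67.2 CPM in the controls, and its KO values were 48.1, 65.9 and 59.6 CPM. The highest KO library was just under the lowest control, and the adjusted p was 0.159 (log2 fold change -0.38, SE 0.13). Prim2, the large primase subunit, was at 22.8, 21.1 and 23.5 CPM against 19.4, 19.1 and 18.4 CPM (adjusted p = 0.398). Prim1 and Pola2 had log2 fold changes of -0.25 and -0.24, and their groups overlapped. Without KO library 1, Prim1 was at -0.16.

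The sliding clamp gene Pcna was at 205, 214 and 237 CPM in the controls, and its KO values were 154, 177 and 167 CPM. Every KO library was below every control, with a log2 fold change of -0.40 (SE 0.12) and an adjusted p of 0.0927. Pcna shared 19.1% of its words with other genes, chiefly the pseudogene Pcna-ps2, which held 7 to 12 counts per library. Rfc4, a small subunit of the clamp loader, was at 20.2, 21.9 and 26.6 CPM against 16.8, 18.7 and 17.2 CPM (adjusted p = 0.223). Rfc3 and Rfc5 had log2 fold changes of -0.35 and -0.27. Rfc2 was the member nearest to no difference, at 19.8, 20.04 and 22.5 CPM in the controls and 25.0, 19.3 and 16.6 CPM in the KO libraries. KO library 1 was the highest of the 6 and KO library 3 the lowest, and the adjusted p was 0.92 (log2 fold change -0.05, SE 0.17). Its sign changed without control library 3 (0.01) or KO library 3 (0.07).

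Lig1 and Fen1 complete the lagging strand. Lig1, the DNA ligase, was at 84.5, 86.6 and 89.6 CPM in the controls, and its KO values were 68.6, 64.9 and 60.8 CPM, 2 tight and separate groups. Its adjusted p was 0.0519, the first above the threshold among the members (log2 fold change -0.43, SE 0.11). Fen1, the flap nuclease, was at 41.7, 51.6 and 41.2 CPM against 34.6, 33.5 and 33.4 CPM (adjusted p = 0.128). Exons of Gm10143 and Tmem258 on the other strand cover 84.2% of Fen1 exon bases, and the counting is not stated to use strand, so the Fen1 value is uncertain. The same holds for Gins2, with 67.3% of exon bases shared with Gse1 on the other strand, and for Chaf1a below, with 52.5% shared with Ubxn6.

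In nucleotide supply, Tk1 showed the largest difference of the 34 genes. Tk1 (ENSMUSG00000025574, chr11:117815526-117826092, minus strand) encodes the thymidine kinase of S phase cells, which salvages thymidine. It was at 28.2, 27.4 and 32.5 CPM in the controls, and its KO values were 21.5, 17.9 and 17.4 CPM. KO library 1 was here the highest of its group, unlike in most members. The mean level of Tk1 fell to 18.9 ± 2.27 CPM from 29.4 ± 2.76 in controls (SD, n = 3). The edgeR adjusted p was 0.0341, at a log2 fold change of -0.64 with an SE of 0.15. It passed with KO library 1 left out (adjusted p = 0.0465). Leaving out any other single library, KO 2, KO 3, control 1, control 2 or control 3, ended the call (0.0571 to 0.141). Rrm2, the regulated subunit of ribonucleotide reductase and the most abundant member, was at 322, 337 and 302 CPM against 224, 259 and 270 CPM. Those groups were apart, with a log2 fold change of -0.35 (SE 0.12) and an adjusted p of 0.144. Rrm1, the large subunit, and Tyms, the thymidylate synthase, had log2 fold changes of -0.33 and -0.21, and neither overlapped between groups. Without KO library 1, Tyms was at -0.13.

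**Figure D4:**
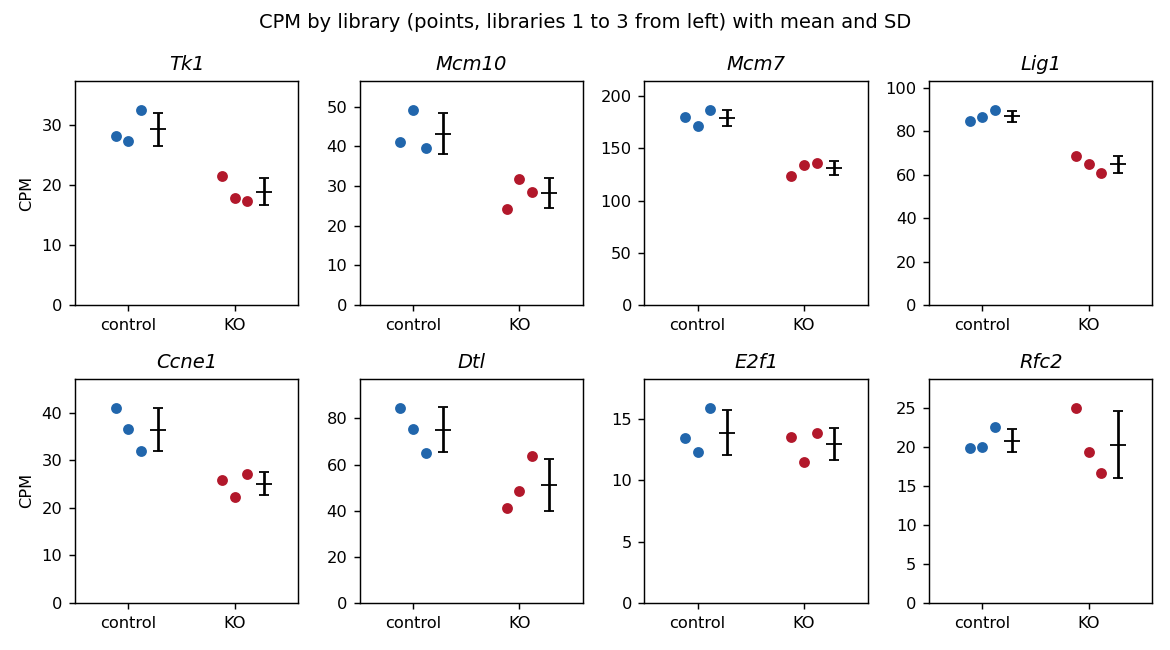
CPM (y axes from 0) in each library for 8 members, with the mean and SD of each group (n = 3) beside the points. Tk1, Mcm10, Mcm7, Lig1, Ccne1 and Dtl have no KO point above a control point, and E2f1 and Rfc2 overlap.

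Chaf1a, the large subunit of the chromatin assembly factor that places histones behind the fork, was at 56.1, 52.6 and 60.6 CPM in the controls, and its KO values were 36.2, 43.5 and 44.0 CPM. The groups were apart (adjusted p = 0.0718, log2 fold change -0.45, SE 0.13). Slbp, which binds the stem-loop of histone messages, was at 97.1, 104 and 112 CPM against 67.0, 93.0 and 83.8 CPM (adjusted p = 0.175). KO library 1 was the lowest for both.

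Among the control genes of S phase, those for a ligase receptor and cyclin E1 stood nearest the threshold. Dtl, the receptor by which a CUL4 ubiquitin ligase destroys CDT1 at the PCNA clamp, was at 84.5, 75.6 and 65.0 CPM in the controls, and its KO values were 41.2, 48.7 and 63.5 CPM. KO library 3 lay just under the lowest control (adjusted p = 0.0865, log2 fold change -0.55, SE 0.16). Ccne1, cyclin E1, was at 41.1, 36.5 and 31.96 CPM against 25.8, 22.4 and 27.2 CPM (adjusted p = 0.0645, log2 fold change -0.54, SE 0.15), with no overlap. Ccne2, cyclin E2, overlapped between groups at 84.7, 93.5 and 73.5 CPM against 58.5, 72.1 and 82.7 CPM (adjusted p = 0.401). Its log2 fold change of -0.23 was -0.12 without KO library 1 and -0.37 without KO library 3. E2f1, an activator of this programme, was at 13.4, 12.3 and 15.9 CPM and at 13.6, 11.5 and 13.9 CPM (adjusted p = 0.819, log2 fold change -0.10, SE 0.18). E2f1 had 51 to 86 counts per library, and its sign changed without control library 3 (0.01).

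A further 72 replication genes outside the 34, also chosen with earlier results of these data known, gave the wider pathway, all of them tested. Of these, 6 were lower and 0 higher with edgeR, beside 0.615% and 2.22% of all tested genes. At an unadjusted p under 0.05, 31 were lower, beside 7.64% of all tested genes, and 1 was higher. With limma-voom, 5 were called lower. DESeq2 called 3 lower on the same 11224 genes (Skp2, Dut and Nasp), and 0 on all 34908 genes with a count, where the filter differs too. A negative log2 fold change was measured in 61 of 72, beside 49.1% of all tested genes, with a median of -0.28. The 6 were Skp2, Dna2, Dut, Fbxo5, Cdc25a and E2f8. With 1 library left out in turn, the number of the 72 called lower was 0 without KO 1 and 1 without KO 2 or control 2. It was 2 without KO 3 or control 1, and 5 without control 3. Those 5 were Skp2, Fbxo5, Cdc25a, Ticrr and Topbp1, and the last 2 were not among the 6.

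Of the 6 called with all libraries, 4 act in S phase control. Skp2, which marks the CDK inhibitor p27 for destruction, was at 41.7, 37.0 and 39.9 CPM in the controls, and its KO values were 26.3, 23.6 and 26.8 CPM. Those tight groups had an adjusted p of 0.0174 and a log2 fold change of -0.63 (SE 0.13). Fbxo5, the inhibitor of the anaphase ligase in S phase, was at 47.5, 50.9 and 45.4 CPM against 29.0, 34.3 and 34.2 CPM (adjusted p = 0.0303). Cdc25a, the phosphatase that activates CDK2, was at 38.5, 43.6 and 37.1 CPM against 25.8, 28.5 and 27.0 CPM (adjusted p = 0.0364). E2f8, a repressor of the E2F family, was at 62.3, 49.3 and 58.2 CPM against 37.0, 43.1 and 37.3 CPM (adjusted p = 0.0419). None of the 4 overlapped between groups. With single libraries left out, the Skp2 call ended without KO 1, KO 2 or control 1 (adjusted p up to 0.102). The calls of Fbxo5 and Cdc25a ended without any library but control 3 (up to 0.153 and 0.186), and that of E2f8 ended without each of the 6 (up to 0.167).

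The other 2 act at the fork and on nucleotides. Dna2, a nuclease of Okazaki fragments, had the largest decrease of the 72. It was at 12.2, 13.8 and 13.7 CPM in the controls, and its KO values were 6.12, 5.96 and 8.21 CPM. The mean level of Dna2 fell to 6.76 ± 1.26 CPM from 13.2 ± 0.87 in controls (SD, n = 3), with an adjusted p of 0.0235 and a log2 fold change of -0.96 (SE 0.21). Dut, the dUTPase that keeps uracil out of DNA, was at 69.5, 79.1 and 87.2 CPM against 45.0, 62.4 and 48.7 CPM (log2 fold change -0.59, adjusted p = 0.0341). With single libraries left out, the Dna2 call held without KO 3 or control 1 and ended without KO 1, KO 2, control 2 or control 3 (adjusted p up to 0.115). That of Dut held without KO 2 or control 1 and ended without KO 1, KO 3, control 2 or control 3 (up to 0.167).

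In each of the other roles the gene of smallest p missed the threshold. These were Orc6 of the origin recognition complex (log2 fold change -0.48, adjusted p = 0.0917), the firing factor Ticrr (-0.55, 0.0658), the clamp unloader Atad5 (-0.46, 0.136), the fork protector Timeless (-0.57, 0.0944) and the histone chaperone Nasp (-0.51, 0.0717). Pold4, the smallest subunit of polymerase delta, had higher KO values, at 7.01, 5.64 and 8.68 CPM in the controls and 21.01, 14.99 and 9.38 CPM in the KO libraries. Its groups did not overlap, with a log2 fold change of 1.06 (SE 0.28) and an adjusted p of 0.0705, and it passed without KO library 3. Pold4 shared 21.7% of its words with other genes.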

How the data were processed

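Muscle stem cell RNA was sequenced in 6 libraries, labelled as biological replicates of 2 groups. Per the labels' protocols, 400 ng of total RNA was depleted of ribosomal RNA, made into stranded libraries and read as pairs of 75 bases, and a second kit is also named. The submitters' processing notes name STAR, Salmon, DESeq2 1.34.0 and GRCm38. Whole-number counts per gene were deposited by the authors, 1 column per library. Counting tool, strand setting and annotation: not given in the sources used here.

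Counts were tested with edgeR 4.0.16 in R 4.3.3: TMM factors, default low-count filter, robust quasi-likelihood fit, two-sided, Benjamini-Hochberg adjustment over all 11224 genes tested, threshold 0.05. Each SE is the fold change over the square root of F. The procedure was checked on simulated data, drawn with the fitted trend of spread between replicates and with no library standing apart. It recovered 20.6% of changes of 1.5-fold, 67.8% of 2-fold and 93% of 4-fold, and 3.4% of its calls were false. These rates need not hold for the real data, where KO library 1 and control library 3 stood apart. Changes under 1.5-fold, such as the members' median of 21.6% lower, were not simulated. A gene that was not called is thus not shown to be unchanged. Alternatives were other scalings and filters, DESeq2 1.42.0 (on all genes with a count, and on the genes edgeR tested), limma-voom (limma 3.58.1), a replicate block, fits without the mitochondrial and structural RNA genes, and fits with libraries left out. Removing control library 3 with KO library 1, and DESeq2 on the tested genes, were chosen after seeing the data.

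The 34 genes and the other lists were chosen with earlier results of these data known. The 3 called members and the 2 of largest change per role are given by library, and of the 72 others those called or of smallest p per role. Annotation is GENCODE M21, and promoters are RefSeq, GRCm38.p6. No 2 libraries of a group were copies (chi-square per degree of freedom at least 6.12). Counting error limits the GINS genes most. Python 3.11.15 and matplotlib 3.10.9 did the rest.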

Additional observations from a re-analysis of the deposited data

How the results depend on the processing

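All 34 members kept a negative log2 fold change under 15 of the 17 alternatives, the exceptions being 33 without KO library 3 and 32 without control library 3, where the sign changed for Rfc2 (0.0695 and 0.0118) and, in the latter, E2f1 (0.0081). With 1 library left out, Rfc2 ranged from -0.214 to 0.0695 and E2f1 from -0.1873 to 0.0081. No alternative called a member higher. Members called lower numbered 3, against 1 with DESeq2 on the same genes or on all genes with a count (Mcm7). They numbered 7 without mitochondrial and structural RNA genes (Mcm7, Mcm10, Tk1, Ccne1, Cdc6, Lig1 and Mcm3). With 1 library left out, 0 were called without KO 2, control 1 or control 2. The call was of Tk1 alone without KO 1 and of Dtl alone without KO 3. Without control 3 there were 3 calls, of Mcm10, Ccne1 and Dtl. Members called lower numbered 4 with control library 3 and KO library 1 both left out (Tk1, Mcm10, Ccne1 and Lig1). With the replicate number as a block 1 member was called (Mcm10) and 41 of all genes were lower, but the libraries share only a number: same-numbered libraries deviated together at correlations of 0.142, -0.093 and -0.062, and not every library correlated best with its own number. Other replication genes called lower numbered 6, against 3 with DESeq2 on the same genes, 0 with DESeq2 on all genes with a count and 0 to 5 with 1 library left out. Those called higher numbered 1 with no low-count filter and 0 to 1 with 1 library left out (Pold4). Among all genes, 249 were higher and 69 lower, against 208 and 52 with DESeq2 on the same genes, 147 and 37 with DESeq2 on all genes with a count and, for lower genes, 110 without mitochondrial and structural RNA genes, 138 with no low-count filter and 106 with both libraries that stood apart left out. Leaving out 1 library gave 133 to 255 higher and 15 to 90 lower. The median log2 fold change of all genes was 0.01, and -0.06 with library totals alone. The causes of these changes were not tested. Of 578 fold changes of members under alternatives, 537 kept direction and side of the threshold, 26 lost a call, 12 gained one and 3 changed sign. Most of the 537 were of members not called in the main fit. All 26 lost calls were of Tk1, Mcm10 and Mcm7, which were called in 9, 10 and 6 of the 17 alternatives. Counting depth weighed most on Gins3, with 23 to 42 counts per library and an SE of 0.27.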
